A study of Homo sapiens with 9 samples.

Results

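H3K9me3 coverage was described for the zinc finger genes that lie outside the large clusters of chromosomes 7 and 19. The set holds every protein-coding gene of GRCh38 whose symbol begins with ZNF on the other autosomes, apart from 7 genes of chromosome 12 (ZNF605, ZNF26, ZNF84, ZNF140, ZNF891, ZNF10 and ZNF268). It numbers 214 of 20037 protein-coding genes. A gene was called clustered when another ZNF gene of the set lay within 200 kb, and solitary otherwise, which gave 91 clustered and 123 solitary genes. Neither rule used a measured value. The genes were described by the covered percent, which is the share of the gene body, from its first to its last annotated base, that lies inside a listed H3K9me3 domain.

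Most ZNF genes encode proteins with zinc fingers of the C2H2 kind, each finger a small fold that holds a zinc ion and typically contacts DNA. The set was chosen by symbol, and the proteins of its genes were not examined. Many of the proteins carry a KRAB domain that recruits TRIM28 and through it SETDB1, an enzyme that writes H3K9me3 on repeats and other targets. The genes themselves often lie in tandem arrays that arose by duplication, and in human cells many such arrays are known to carry H3K9me3. In a typical KRAB zinc finger gene the fingers are encoded by the last exon, at the 3′ end.

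Domains were mapped by Cut&Run, in which a nuclease tethered to the antibody releases the marked DNA, in hTERT RPE-1, a telomerase-immortalised line from human retinal pigment epithelium. The LmnB1 group held 4 libraries of cells that stably overexpressed lamin B1, a filament protein of the nuclear lamina, fused to mCherry, and the mCherry group held 4 libraries of cells that overexpressed mCherry alone. Cells of both groups received doxycycline at 0.05 ug/mL for 24 hours. Each group came from 2 clonal lines (LmnB1_16 and LmnB1_6 for LmnB1, mCherry_3 and mCherry_4 for mCherry), each sampled in 2 biological replicates, so a difference between groups rests on 2 clones against 2. The shared control was input from wild-type cells.

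Libraries differed in depth and in how much of the genome was listed. Reads inside domains numbered 4467294 to 10321442 in LmnB1 libraries and 2855378 to 6959349 in mCherry libraries, and domains covered 357 to 646 Mb and 320 to 529 Mb. Depth relative to the input ran from 0.880 to 1.01 with LmnB1 and from 0.421 to 0.859 with mCherry, so depth and construct cannot be told apart. LmnB1_6 replicate 2 and mCherry_4 replicate 2 listed the least. Over 229 domains with identical coordinates a chi-square test found no difference between the counts of the mCherry_3 replicates beyond sampling noise (chi-square per degree of freedom 1.08, p = 0.197), although their lists were not the same. In LmnB1_16 the ratio was nearly as low, at 1.10, but over 648 domains the chi-square test found a difference (p = 0.0380). The remaining clones had ratios of 1.67 and 1.73. The test used only domains placed identically in both lists, so it does not show that the mCherry_3 replicates are the same sample. As a precaution they were counted as 1 sample in every mean ± SD, which leaves n = 3 for mCherry. A gene at 0 is not shown to lack the mark, since a domain is listed only past a log2 enrichment of 0.6. Of 9 markers of pigment epithelium, BEST1, LRAT, PMEL, RLBP1, RPE65, TYR and TYRP1 were at 0 in all 8 libraries. The others were MITF, at 100 and 64.4% in LmnB1_6 and 0 elsewhere, and OTX2, at 100 and 29.3% in LmnB1_16 and 0 elsewhere. The 4 epithelial markers KRT8, KRT18, CDH1 and EPCAM were at 0 in all 8. Domain lists do not measure expression, so the cell type itself was not checked.

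The promoters of 4 genes are shown because they span what the set displayed. ZNF354C and ZNF141 lay inside domains over their whole length, promoter included, in all 8 libraries. ZNF514 and ZNF510 had covered gene bodies and a promoter outside every listed domain. Each window runs from 250 bases before to 50 bases after the annotated start, read 5′ to 3′ on the strand of the gene, from RefSeq on GRCh38.p14, and capitals mark every CG. The positions are chr5:179060123-179060422 on the plus strand for ZNF354C, chr4:337564-337863 on the plus strand for ZNF141, chr2:95159536-95159835 on the minus strand for ZNF514 and chr9:96778038-96778337 on the minus strand for ZNF510.
ZNF354C: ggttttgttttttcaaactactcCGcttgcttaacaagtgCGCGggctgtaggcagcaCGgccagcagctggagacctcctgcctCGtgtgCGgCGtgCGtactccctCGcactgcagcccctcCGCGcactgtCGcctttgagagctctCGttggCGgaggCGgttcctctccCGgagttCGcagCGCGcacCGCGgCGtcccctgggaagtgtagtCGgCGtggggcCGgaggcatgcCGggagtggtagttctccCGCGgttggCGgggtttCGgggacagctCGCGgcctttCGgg
ZNF141: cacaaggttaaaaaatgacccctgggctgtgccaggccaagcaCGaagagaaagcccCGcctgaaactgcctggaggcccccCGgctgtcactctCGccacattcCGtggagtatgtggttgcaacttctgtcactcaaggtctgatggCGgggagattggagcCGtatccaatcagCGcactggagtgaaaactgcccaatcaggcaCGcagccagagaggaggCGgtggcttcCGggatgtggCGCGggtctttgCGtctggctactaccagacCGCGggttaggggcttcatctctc
ZNF514: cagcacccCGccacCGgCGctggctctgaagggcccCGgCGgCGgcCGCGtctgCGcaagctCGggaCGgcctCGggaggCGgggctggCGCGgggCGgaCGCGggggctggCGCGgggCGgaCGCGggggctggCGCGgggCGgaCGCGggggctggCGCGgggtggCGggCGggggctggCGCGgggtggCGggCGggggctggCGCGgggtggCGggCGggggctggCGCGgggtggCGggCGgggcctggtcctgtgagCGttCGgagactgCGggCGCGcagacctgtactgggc
ZNF510: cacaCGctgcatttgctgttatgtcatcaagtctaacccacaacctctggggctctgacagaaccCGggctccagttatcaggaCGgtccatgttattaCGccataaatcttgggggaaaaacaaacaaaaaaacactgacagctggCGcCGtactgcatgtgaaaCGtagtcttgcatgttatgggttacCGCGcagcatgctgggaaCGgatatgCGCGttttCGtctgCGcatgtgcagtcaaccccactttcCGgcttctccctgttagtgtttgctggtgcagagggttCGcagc
They hold 33, 16, 49 and 16 CG pairs, so windows with many and with few CG pairs occurred among both.

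ZNF genes of these autosomes were covered several times more than the average gene, and the clustered ones were covered most. The mean covered percent over the 214 genes was 25.3 and 24.6% in LmnB1_16 and 22.5 and 16.1% in LmnB1_6, against 23.6 and 24.8% in mCherry_3 and 19.5 and 15.2% in mCherry_4. Over all 20037 genes it was 7.18, 6.06, 6.34 and 3.47% in the same LmnB1 libraries, against 5.98, 6.10, 4.31 and 3.01% in the mCherry libraries. The ratio of the set to all genes ran from 3.52 to 5.05 and was highest in mCherry_4 replicate 2, the library that listed the least. The set stayed below the ZNF genes of chromosome 19, whose mean over the 8 libraries was 56.5%, and below those of chromosome 7, at 30.1%.

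Clustered genes had a mean of 38.2, 37.9, 35.5 and 25.9% covered in the LmnB1 libraries, against 36.8, 38.9, 31.1 and 23.5% in the mCherry libraries. Solitary genes had 15.8, 14.8, 12.9 and 8.84% with LmnB1, against 13.8, 14.4, 10.9 and 9.03% with mCherry. Clustered genes were thus higher in 8 of 8 libraries, by 14.5 to 24.5 points and by a factor of 2.42 to 2.93. Members share loci and domains and are not replicates, so no p is given for this difference. LmnB1_6 replicate 2 and mCherry_4 replicate 2 were the lowest libraries for clustered and for solitary genes.

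**Figure D1:**
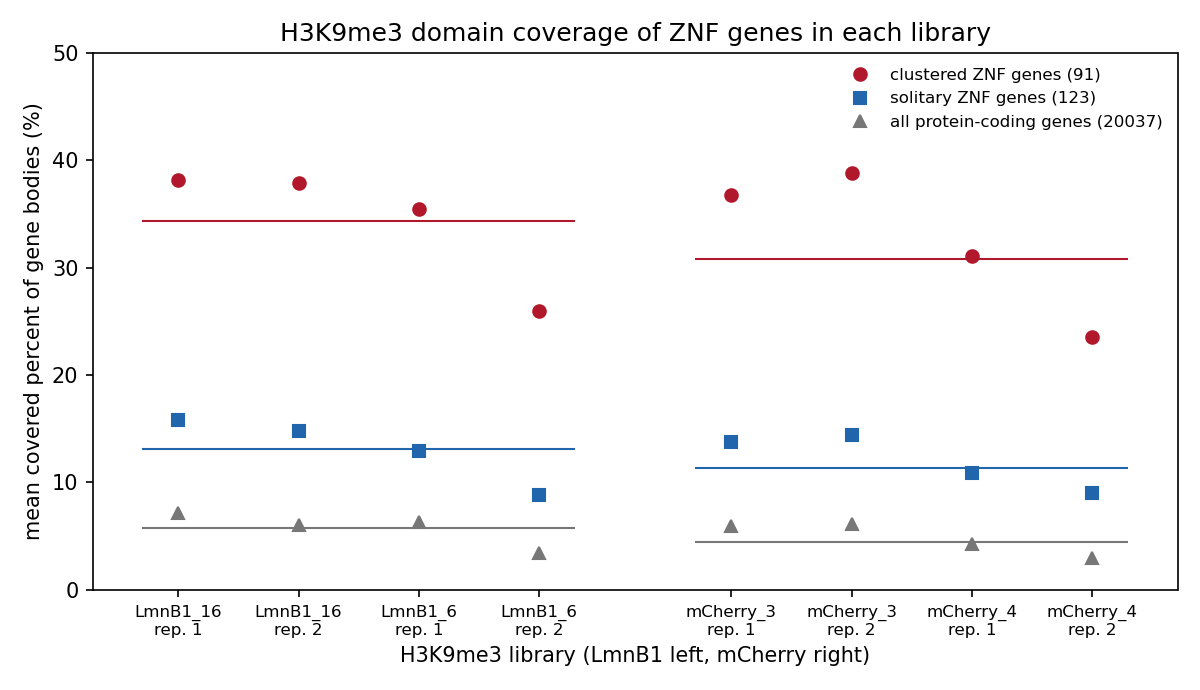
Mean covered percent of gene bodies in each H3K9me3 library, with LmnB1 libraries on the left and mCherry libraries on the right, for clustered ZNF genes (circles), solitary ZNF genes (squares) and all protein-coding genes (triangles). Horizontal lines are group means (LmnB1 n = 4; mCherry n = 3, with the mCherry_3 replicates as 1 sample), and clustered genes lie between 23.5 and 38.9%, above solitary genes at 8.84 to 15.8% in every library.

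Coverage was recurrent in a minority of the genes and absent from the lists for most. Of the 214 genes, 45 (21.0%) had covered bases in all 8 libraries, 55 in some and 114 (53.3%) in none, compared with 700 of 20037 protein-coding genes (3.49%) in all 8 and 15897 (79.3%) in none. Among clustered genes 28 of 91 (30.8%) were covered in all 8 and 37 in none. Among solitary genes 17 of 123 (13.8%) were covered in all 8 and 77 in none. The set held 3 genes covered over their whole length in every library, ZNF141, ZNF354C and ZNF572, and 21 that were covered over at least 50% in every library. Clustered genes with any coverage had a median covered percent of 63.6%, and solitary ones 20.5%.

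Among genes that do not overlap another ZNF gene, coverage was higher where the nearest one lay within 200 kb. The 65 genes that do not overlap a neighbour but have one within 50 kb had a mean of 38.7% covered, and 26 of them were covered in all 8 libraries. The 10 genes with a neighbour at 50 to 200 kb had 39.1%. The mean was 15.7% over 27 genes with a gap of 200 to 1000 kb and 11.7% over 96 genes with a gap above 1000 kb. The 16 genes that overlap another ZNF gene had only 8.68%, and 0 of them were covered in all 8. That class holds readthrough and antisense symbols such as ZNF660-ZNF197 and ZNF593OS, whose values share sequence with ZNF660, ZNF197 and ZNF593. Just inside the limit of 200 kb were ZNF354A (gap 129 kb, 48.6%), ZNF629 (168 kb, 0) and ZNF683 (190 kb, 0). Just outside were ZNF512 and ZNF513 (202 kb from each other, 24.5% and 0) and ZNF774 (270 kb, 0).

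Gene length moved with the difference. Clustered genes were shorter, with a median of 18.2 kb against 30.6 kb for solitary genes and 24.1 kb for all genes. Below 20 kb the mean covered percent was 26.4% over 51 clustered and 16.02% over 39 solitary genes, and 7 (13.7%) and 6 (15.4%) were covered in all 8 libraries. From 20 to 60 kb it was 43.6% over 31 clustered and 12.1% over 44 solitary genes, and 16 (51.6%) and 6 (13.6%) were covered in all 8. Above 60 kb it was 38.9% over 9 clustered and 9.63% over 40 solitary genes, and 5 (55.6%) and 5 (12.5%) were covered in all 8. The larger share of clustered genes covered in every library was therefore seen at 20 kb and above and not below it.

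Other genes near the clustered ZNF genes were also covered more, at a lower level. Within 200 kb of a clustered gene lay 232 protein-coding genes without a ZNF symbol, with a mean of 10.3% covered and 17 (7.33%) in all 8 libraries. Within 200 kb of a solitary gene lay 769, with 2.56% and 17 (2.21%). Of the 17 near clustered genes, 11 lay within stretches of neighbouring ZNF genes, 6 of them at 1 locus near the start of chromosome 4. Those 6 carry LOC symbols, and their relation to ZNF genes was not checked. The 11 include ZFP2 and ZKSCAN7, which are C2H2 genes without a ZNF symbol. Such genes were not counted apart near solitary genes.

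The clustered genes formed 26 runs in which each gene lies within 200 kb of the next. In 3 runs every gene was covered in all 8 libraries, in 7 runs every gene (22 in all) was at 0, and 8 runs held both kinds. The runs of ZNF511 with ZNF511-PRAP1, which is among the 7 at 0, and of ZNF664 with ZNF664-RFLNA each pair a gene with its own readthrough symbol. Without readthrough and antisense symbols (chosen after seeing the data) 85 genes were clustered. The clustered minus solitary difference was then 23.1 points, beside 20.9 points. Of the 9 runs of 4 or more genes, 2 stood highest, near the start of chromosome 4 and the end of chromosome 5.

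The run on chromosome 4 from 53321 to 499156 holds ZNF595, ZNF718, ZNF732, ZNF141 and ZNF721, and all 5 were covered in all 8 libraries, with a mean of 86.1%. ZNF141 (337814 to 384868), a KRAB zinc finger gene, was at 100% in each library, inside a single domain of 337 to 461 kb with LmnB1 and 163 to 335 kb with mCherry. That domain held 5077 to 11296 H3K9me3 reads in LmnB1 libraries and 2003 to 5479 in mCherry libraries, and the authors' log2 enrichment was 0.96 to 1.70 and 0.81 to 1.22. ZNF732 was at 100% in 7 libraries and 95.8% in mCherry_4 replicate 2. In that library both genes lay in separate domains, of 163 kb at ZNF141 and 159 kb at ZNF732.

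The run on chromosome 5 from 178711512 to 179083977 holds ZNF354A, ZNF354B, ZNF454, ZNF879 and ZNF354C, with a mean of 78.0%. ZNF354C (179060373 to 179083977), which encodes a KRAB zinc finger repressor, was at 100% in all 8 libraries, in a domain of 213 to 404 kb with LmnB1 and 59 to 469 kb with mCherry. ZNF879 was at 100% in 7 libraries and 90.6% in mCherry_4 replicate 2. ZNF454 was at 100% in all 4 LmnB1 libraries, against 100% in both mCherry_3 libraries and 91.8 and 79.5% in mCherry_4. The related genes ZNF354A and ZNF354B, at the other end of the run, had means of 48.6 and 45.9%. The run also holds ZFP2, another C2H2 gene, at a mean of 93.6%, and GRM6, a glutamate receptor gene of retinal bipolar cells, at 90.7%, so coverage there was not limited to ZNF symbols.

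On chromosome 16 lay both a run without listed domains and a mixed run. From 30378312 to 30787205 the 9 genes ZNF48, ZNF771, ZNF768, ZNF747, ZNF764, ZNF688, ZNF785, ZNF689 and ZNF629 were at 0 in all 8 libraries, as were the 11 other protein-coding genes between them. This was the longest run by number of genes. From 3112586 to 3443504, ZNF205, ZNF213 and ZNF597 were at 0 in all 8. Between them ZNF75A had a mean of 80.2%, ZNF263 of 78.4%, ZNF200 of 63.9% and ZNF174 of 63.4%, of which ZNF200 was the one covered in all 8. ZNF597, known as an imprinted gene in humans, lies 23050 bases from ZNF174.

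Single genes at 0 also stood inside covered runs elsewhere. On chromosome 1 from 246945546 to 247331867, ZNF670 had 79.8%, ZNF695 75.9%, ZNF124 74.6% and ZNF669 47.1%, and ZNF496 was at 0 in all 8 libraries. On chromosome 8 from 144720909 to 144950880, ZNF7 had 76.5%, ZNF16 67.0% and ZNF251 18.0%, each in all 8, and ZNF250 had 5.97%, while ZNF34 and ZNF517, between ZNF251 and ZNF7, were at 0. On chromosome 10 from 37758538 to 38150293, ZNF37A had 63.9%, ZNF248 24.1% and ZNF33A 7.41%, and ZNF25 was at 0. On the same chromosome from 43436848 to 43648881, ZNF32 had 70.3%, ZNF485 62.0% and ZNF487 25.3%, and ZNF239 was at 0. ZNF genes resemble one another in sequence, and no source used here says how reads with several matches were handled, so the coverage of close copies such as ZNF33A is uncertain.

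**Figure D2:**
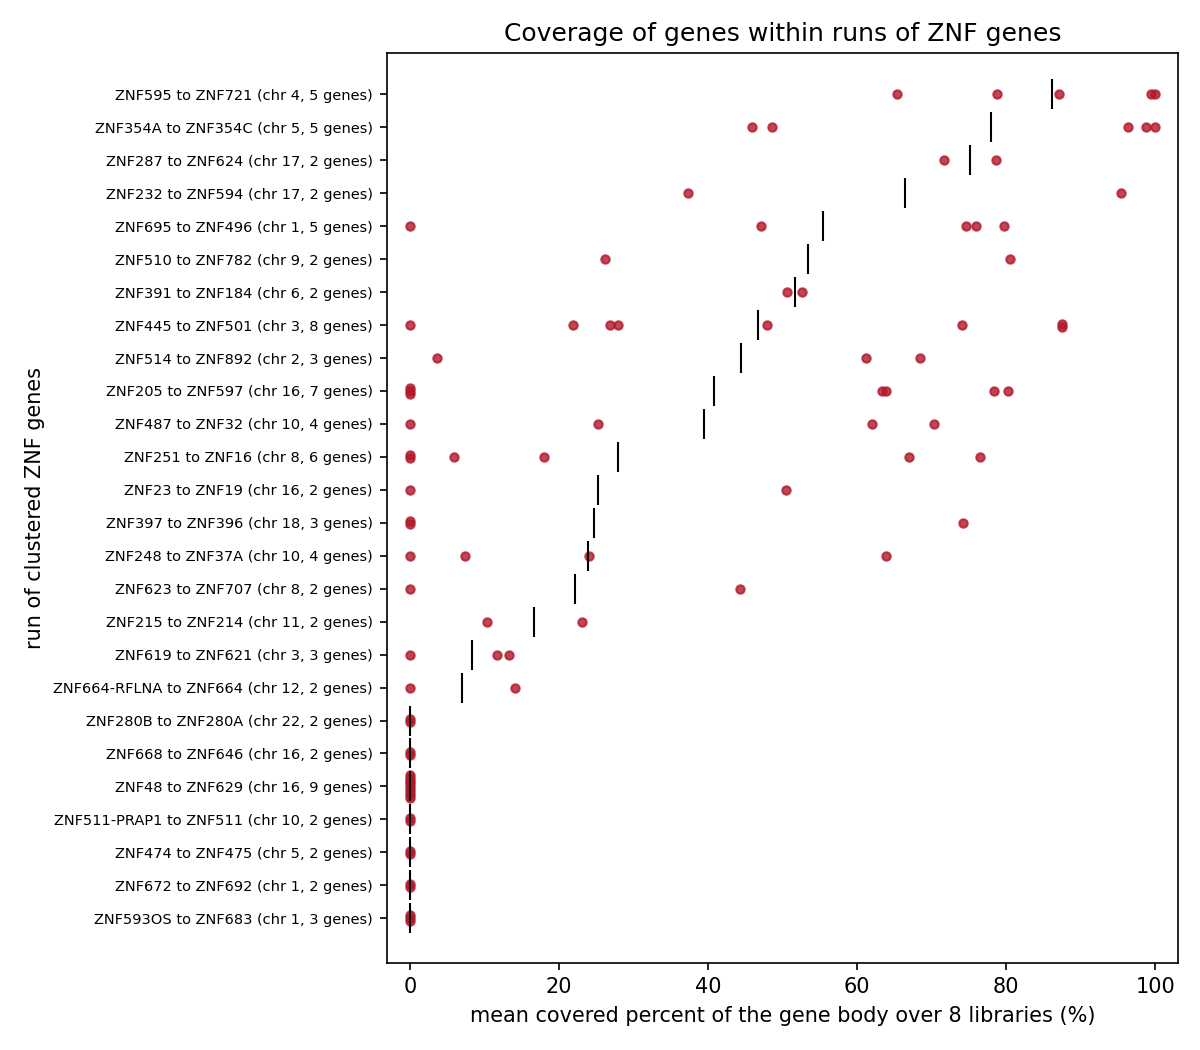
Mean covered percent over 8 libraries (horizontal axis) of every gene in the 26 runs of clustered ZNF genes, with the runs down the page by their mean (black ticks) and a point for each gene. The runs on chromosomes 4 and 5 lead at 86.1 and 78.0%, 7 runs have every gene at 0, and many runs in between hold genes at 0 beside genes above 50%.

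The run of 8 genes on chromosome 3 from 44431705 to 44737083 had a mean of 46.7%. ZNF445, which encodes a KRAB protein that helps maintain genomic imprinting, was at 0 in all 8 libraries, and its neighbour ZNF852 had a mean of 74.0% and was covered in all 8. ZNF502 and ZNF501 at the other end were at 0 in LmnB1_16 replicate 1 and at 100% in the other 7 libraries. In those 7 libraries they lay inside a domain of 35 to 67 kb, with a log2 enrichment of 0.93 to 1.58 and 385 to 1155 reads. In LmnB1_16 replicate 1, the library with the most reads in domains, nothing was listed between 44675000 and 44766001. Whether the reads there lay just below the authors' threshold cannot be read from the lists.

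In a pair with ZNF232, ZNF594 (chromosome 17, 5174083 to 5191868) had 100, 95.1, 95.1 and 83.9% covered with LmnB1, against 89.5, 100, 100 and 100% with mCherry, and the groups overlapped.

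Among solitary genes, 17 were covered in all 8 libraries. ZNF572 (chromosome 8, 124973295 to 124979389), 18312028 bases from the nearest ZNF gene of the set, was at 100% in each. Its domain was short, with 10 to 40 kb and 199 to 810 reads in LmnB1 libraries and 24 to 40 kb and 187 to 665 reads in mCherry libraries. ZNF300 (chromosome 5, 150894399 to 150904980), a KRAB zinc finger gene, had 97.7 ± 4.63% with LmnB1 (SD, n = 4) and 90.7 ± 9.36% with mCherry (SD, n = 3). ZNF717 (chromosome 3, 75694701 to 75785549) had 94.1 ± 9.16% with LmnB1 and 87.7 ± 17.8% with mCherry. In both genes the groups overlapped, with the lowest value in mCherry_4 replicate 1.

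ZNF648 (chromosome 1, 182054570 to 182069646) was at 100% in all 4 LmnB1 libraries, against 100% in 3 mCherry libraries and 2.86% in mCherry_4 replicate 2. ZNF883 (chromosome 9, 112988129 to 113012192) had 86.7, 86.7, 83.4 and 74.3% with LmnB1, against 100% in 3 mCherry libraries and 0 in mCherry_4 replicate 1. In each of these genes 1 mCherry_4 library departed from all others. ZNF521 (chromosome 18, 25061924 to 25352166), a long gene for a cofactor of blood and neural progenitor cells, had 95.1, 91.0, 73.4 and 17.6% with LmnB1, against 97.5, 94.4, 73.4 and 59.6% with mCherry. ZNF436 and ZNF596 had means of 82.1 and 77.9% over the 8 libraries, with ranges of 72.7 to 100% and 68.0 to 87.7%.

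**Figure D3:**
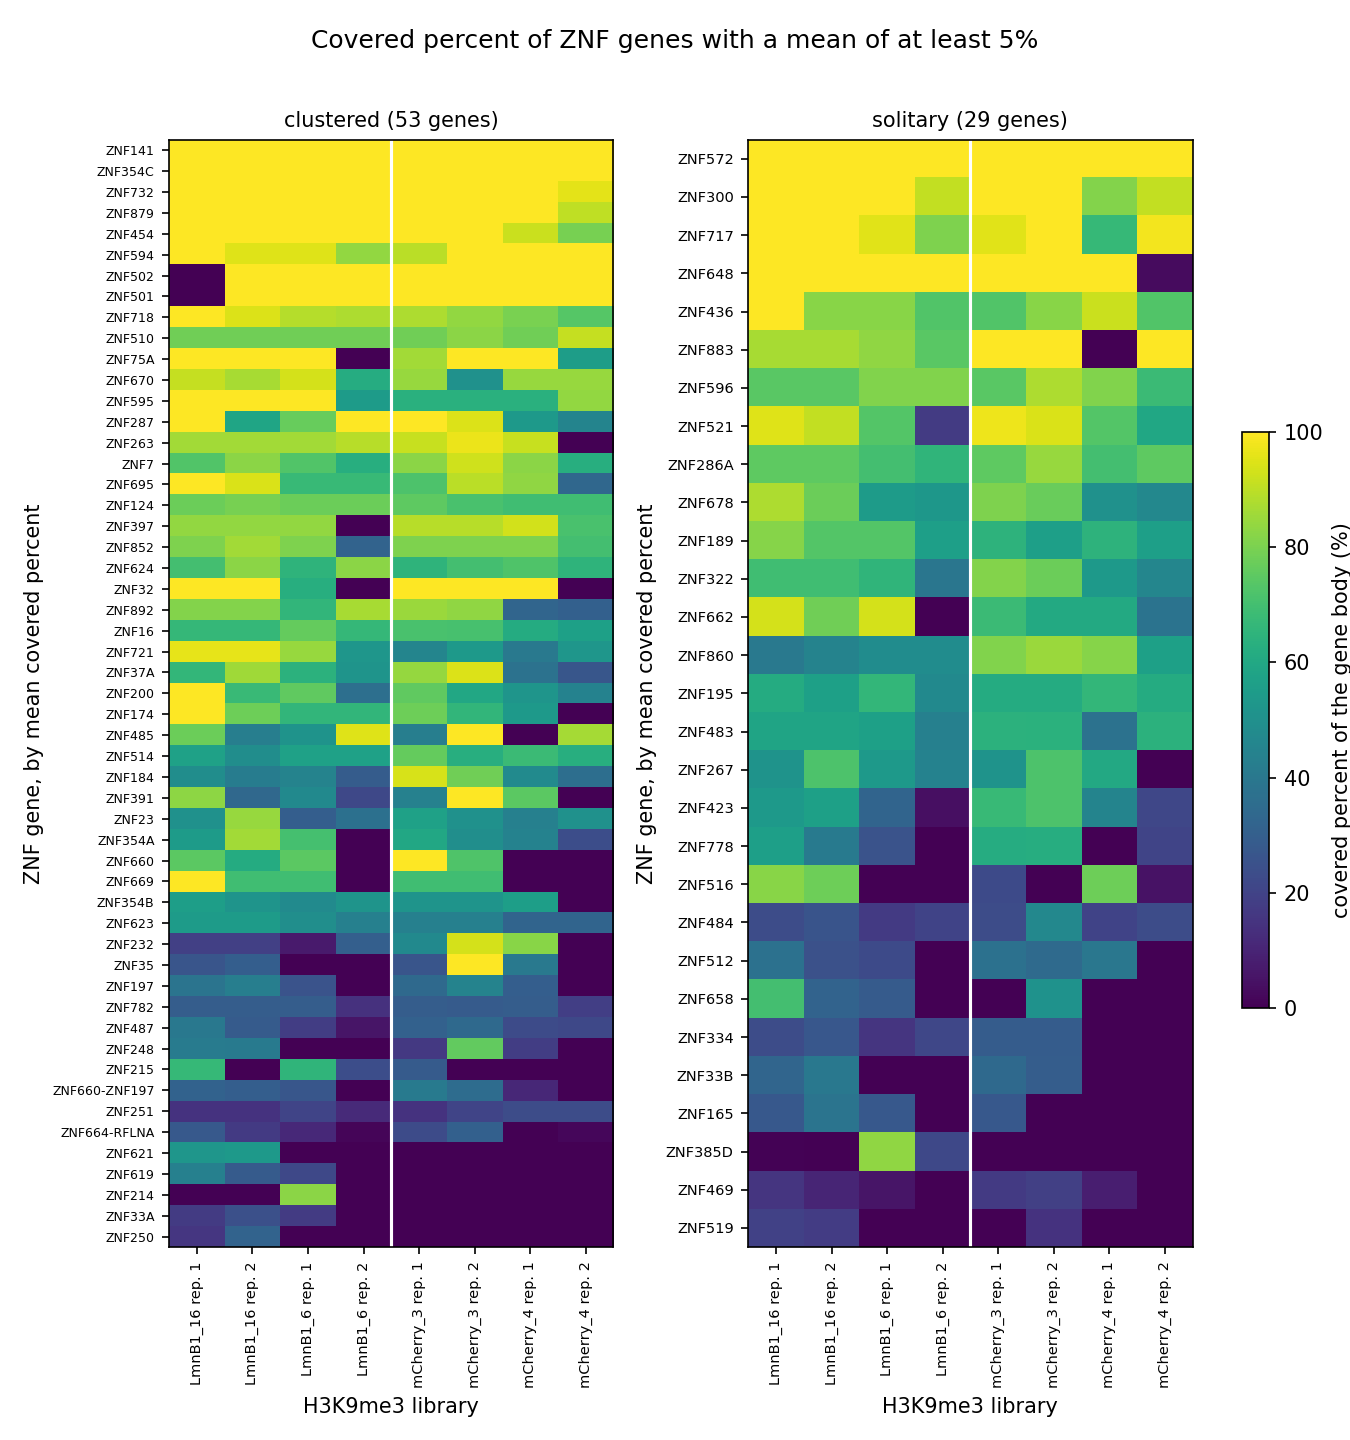
Covered percent (colour, 0 to 100%) of the 82 ZNF genes with a mean of at least 5%, with genes down the page by their mean, 53 clustered on the left and 29 solitary on the right, and libraries across, LmnB1 left of the white line and mCherry right of it. The top rows are near 100% in nearly every library, single dark cells mark ZNF502 and ZNF501 at 0 in LmnB1_16 replicate 1 and ZNF648 at 2.86% in mCherry_4 replicate 2, and the columns of LmnB1_6 replicate 2 and mCherry_4 replicate 2 hold the most dark cells.

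Coverage within covered ZNF genes leaned to the 3′ end. Strand was known for 171 of the 214 genes, and 67 of these had a mean covered percent of at least 5. With each gene body cut into 5 equal parts, their mean covered percent from the 5′ to the 3′ part was 33.3, 52.7, 63.9, 67.4 and 66.1% over the 8 libraries. In 1759 other protein-coding genes chosen the same way it was 40.8, 44.5, 45.4, 45.5 and 45.0%. The 3′ part was covered more than the 5′ part in 49 of the 67 ZNF genes (73.1%) and less in 14. Of the other genes it was covered more in 709 (40.3%) and less in 571. ZNF genes of the set thus had less of the 5′ part and more of every later part covered than covered genes outside the set.

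The lean was seen in clustered and in solitary genes. The 43 clustered genes had 38.9% in the 5′ part and 68.8% in the 3′ part, and the 24 solitary genes 23.4 and 61.4%. In the 67 genes together the 5′ part had 34.5 ± 8.47% with LmnB1 (SD, n = 4) and 30.0 ± 8.19% with mCherry (SD, n = 3), and the 3′ part 67.8 ± 11.4% and 60.3 ± 16.4%. In ZNF510 (chromosome 9, 96754553 to 96778087) the 5 parts had 8.60, 93.9, 100, 100 and 100% over the 8 libraries. ZNF514 (chromosome 2, 95123105 to 95159848) went the other way, with 68.1, 100, 99.0, 36.7 and 2.47%, while its promoter window was free.

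**Figure D4:**
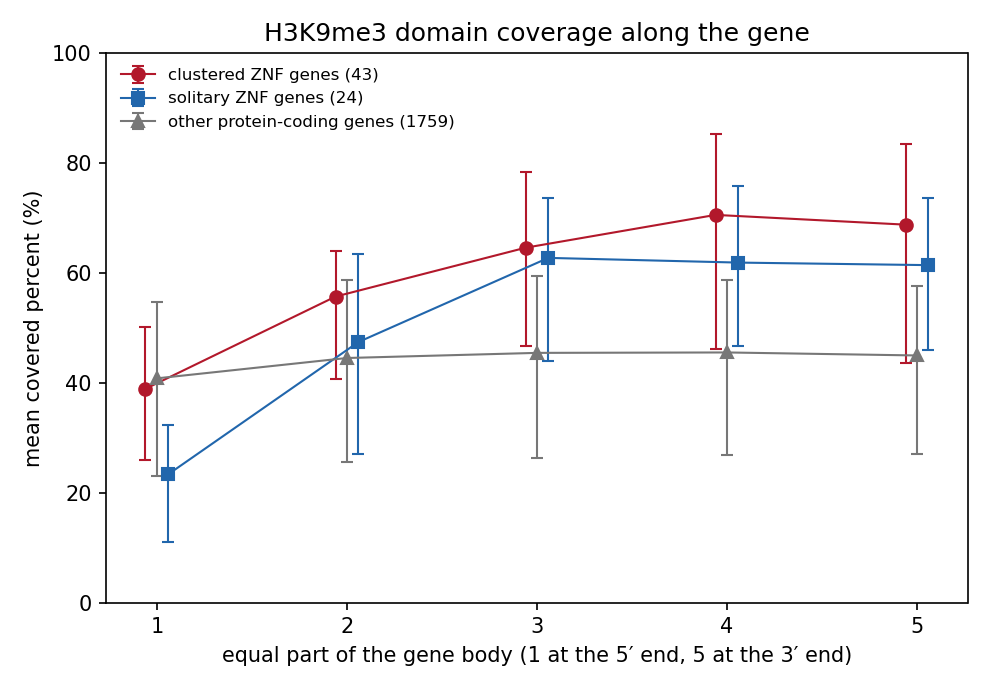
Mean covered percent in each of 5 equal parts of the gene body, from the 5′ end to the 3′ end, for 43 clustered and 24 solitary ZNF genes and 1759 other protein-coding genes with a mean of at least 5%. Points are means over 8 libraries and bars run from the lowest to the highest library, and the part at the 5′ end is the lowest in both ZNF groups, at 38.9 and 23.4%, while other genes are nearly flat.

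Promoters of covered ZNF genes often lay outside the domains. RefSeq gave 230 promoter windows of 300 bases for 171 of the genes. Genes covered in all 8 libraries had 45 windows, which belonged to 35 genes, since some genes have several windows and others none. Of these windows, 23 (51.1%) were free in every library and 5 (11.1%) were covered in all 8. Among 828 windows of all protein-coding genes covered in all 8 libraries, 186 (22.5%) were free and 219 (26.4%) covered. The 5 windows covered in all 8 belonged to clustered genes, of whose 24 windows they were 20.8%, against 0 of 21 windows of solitary genes. Genes covered in only some libraries went the other way, with 41 of 62 windows (66.1%) free in every library, beside 73.6% of 4276 windows over all protein-coding genes. Of those 62, the free windows were 12 of 31 (38.7%) in clustered genes and 29 of 31 (93.5%) in solitary genes. The median number of CG pairs in a window was 18 for genes covered in all 8, 22 for those covered in some and 24 for those covered in none. In solitary genes these medians were 15, 24 and 24, but in clustered genes they were 25.5, 22 and 22, so the order was not shared. Over all protein-coding genes the medians were 14, 16 and 22. CG was searched as the letters CG, which read the same on both strands, and 98.7% of the ZNF windows and 98.0% of all windows hold at least 1.

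Domains that touched the ZNF genes ranked high within each library's list. They numbered 106, 98, 101 and 55 in the LmnB1 libraries, against 80, 78, 74 and 64 in the mCherry libraries. Their median score, the authors' log2 enrichment times 100, stood at the 65.6th to 86.6th percentile of the list. The median log2 was 1.33, 1.13, 1.10 and 0.84 with LmnB1, against 1.09, 1.05, 0.96 and 0.84 with mCherry. Over all domains it was 1.15, 0.96, 0.89 and 0.70 with LmnB1, against 0.88, 0.87, 0.85 and 0.72 with mCherry. The domains at ZNF genes were above the median of their own list in all 8 libraries.

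Whether an excess of lamin B1 alters H3K9me3 domains is the comparison the design was built for. Over the ZNF genes the mean covered percent was 22.1 ± 4.20% with LmnB1 (SD, n = 4) and 19.6 ± 4.49% with mCherry (SD, n = 3). The difference was smaller than either SD. With all 8 libraries counted separately it was 1.40 points, so counting the mCherry_3 replicates as 1 sample enlarged it. With limma on all 2304 genes with a mean of at least 5%, 7 genes passed an adjusted p of 0.05 (0.304%), and of the 82 ZNF genes among them 0 passed. The other 132 ZNF genes lay under that mean and were not tested. At an unadjusted p below 0.05 there were 5 ZNF genes (6.10%), 4 higher and 1 lower with LmnB1, beside 84 of all genes tested (3.65%). The 5 were ZNF860, ZNF124, ZNF718, ZNF721 and ZNF623. The median difference, LmnB1 minus mCherry, was 3.81 points over the 82 ZNF genes and 3.73 points over all genes tested. Of the ZNF genes 47 (57.3%) were positive, 30 negative and 5 at 0, beside 60.2% positive over all genes tested. ZNF385D, ZNF619, ZNF621, ZNF250, ZNF33A and ZNF214 were at 0 in every mCherry library and passed the 5% filter through LmnB1 coverage alone. Their positive sign was therefore fixed by the filter and is not a result. Leaving out LmnB1_6 replicate 2, ZNF721 (43.1 points, limma adjusted p = 0.0387) and ZNF33A (19.4 points, limma adjusted p = 0.0412) passed. ZNF33A was among the genes at 0 in every mCherry library, so its result was favoured by the filter. ZNF860 passed without mCherry_4 replicate 2 (-37.0 points, limma adjusted p = 0.00630).

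In 3 genes the 4 LmnB1 values did not overlap the 4 mCherry values, 1 above (background 2.69% of all genes tested) and 2 below (0.391%). ZNF860 (chromosome 3, 31981750 to 32006443), a solitary gene, had 40.5, 44.5, 48.6 and 48.6% covered with LmnB1, against 81.0, 85.0, 82.0 and 56.7% with mCherry. Every LmnB1 value was lower, by -30.6 points in the mean (SE 8.58, limma adjusted p = 0.896). The domain at ZNF860 was 10 to 12 kb long with LmnB1 and 14 to 23 kb with mCherry, and its log2 enrichment was 1.03 to 1.83 with LmnB1 and 0.71 to 1.32 with mCherry. It was thus shorter in every LmnB1 library, while the ranges of its enrichment overlapped. The difference in covered percent shrank to -10.1 points at equal covered length and with the highest-scoring 50% of domains (adjusted p of 0.900 and 0.892 in limma).

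ZNF514 had 57.2, 49.0, 57.2 and 57.2% covered with LmnB1, against 76.2, 62.6, 68.0 and 62.6% with mCherry. The groups did not overlap, and the difference was -12.2 points (SE 5.30, adjusted p = 0.907 in limma). Its domain was 18 to 21 kb long with LmnB1 and 23 to 28 kb with mCherry. ZNF124 (chromosome 1, 247121975 to 247172379) had 77.4, 79.4, 77.4 and 77.4% with LmnB1, against 75.4, 71.4, 69.4 and 69.4% with mCherry. All 4 LmnB1 values were higher, by 6.45 points in the mean (SE 2.42, adjusted p = 0.907 in limma). Domains start and end on steps of 1000 bases, so the gap between the groups at ZNF124 is 1 step at its narrowest. With the highest-scoring 50% of domains the difference at ZNF124 was 23.8 points (adjusted p = 0.803 in limma), and at ZNF514 it turned to 3.40 points (adjusted p = 1.0 in limma).

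In the run on chromosome 4, ZNF721 had 96.4, 96.4, 84.5 and 52.4% with LmnB1, against 45.7, 54.1, 40.6 and 52.4% with mCherry, a difference of 34.2 points (SE 12.7, adjusted p = 0.907 in limma). The groups overlapped through LmnB1_6 replicate 2. ZNF718 had 92.9 ± 5.64% with LmnB1 (SD, n = 4) and 79.8 ± 6.11% with mCherry (SD, n = 3).

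**Figure D5:**
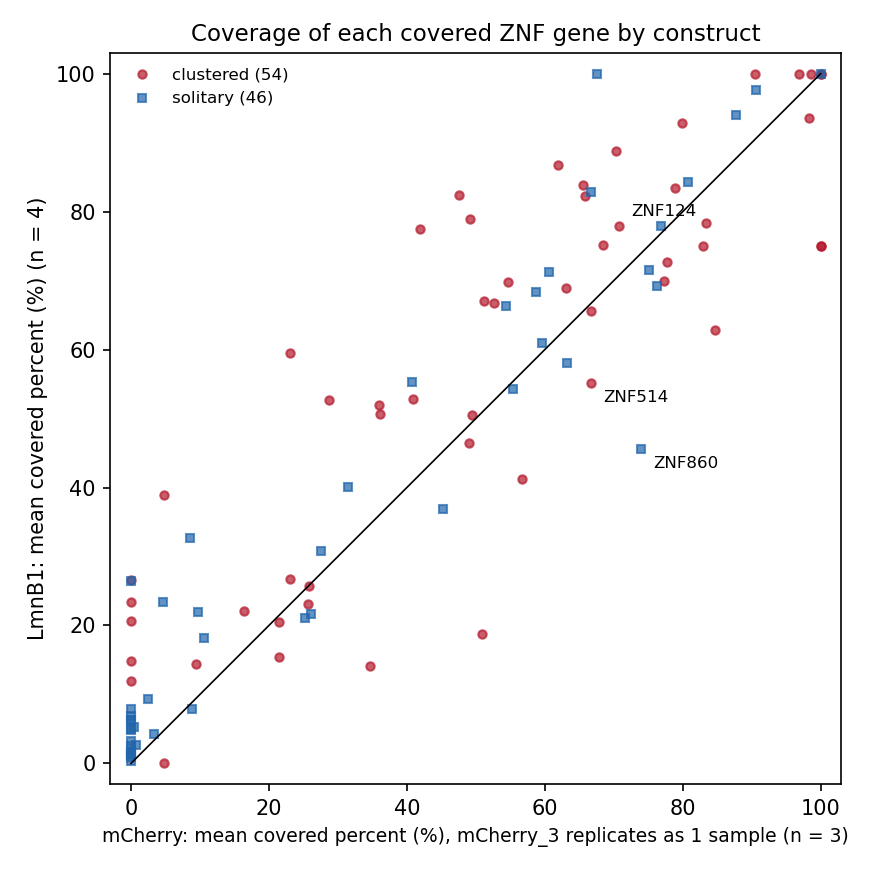
Mean covered percent with LmnB1 (vertical, n = 4) against mCherry (horizontal, n = 3, mCherry_3 replicates as 1 sample) for the 54 clustered and 46 solitary ZNF genes covered in any library, with the line of equal values. Points scatter on both sides of the line, the 3 named genes are those whose groups do not overlap, and ZNF860 lies farthest below the line of these, at 45.6% with LmnB1.

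Genes listed under a single construct were mostly on the LmnB1 side, as over all genes. Of the 55 ZNF genes covered in some libraries, 20 (36.4%) were covered with LmnB1 alone and 1, ZNF2, with mCherry alone. Over all protein-coding genes the counts were 1517 (44.1%) and 254 (7.38%) of 3440. The 20 were 15 of 29 solitary and 5 of 26 clustered genes. Covered in all 4 LmnB1 libraries and no mCherry library were 0 ZNF genes, beside 16 (0.465%) of 3440 over all protein-coding genes. Covered in at least 3 LmnB1 libraries and no mCherry library were 8, ZNF362, ZNF804A, ZNF385D, ZNF619, ZNF148, ZNF618, ZNF33A and ZNF609. The 8 are 14.5% of the 55, beside 309 (8.98%) of 3440 over all protein-coding genes, and the reverse held for 0 ZNF genes and 11 (0.320%) of all genes. ZNF148, which encodes a widely expressed promoter-binding factor, had 8.02, 11.4, 8.02 and 0% with LmnB1 and 0 with mCherry. ZNF385D had 0.521, 0, 83.4 and 21.7% with LmnB1, so its coverage came mostly from clone LmnB1_6. The LmnB1 libraries were also the deeper ones relative to the input, and the part of depth in these counts was not tested.

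Other C2H2 families on the same autosomes differed among themselves in the same data. Of 15 ZFP genes, 7 were covered in all 8 libraries (ZFP69B, ZFP69, ZFP2, ZFP37, ZFP90, ZFP1 and ZFP3) and 5 in none, with a mean of 41.9%. Of 12 ZSCAN genes, whose products carry a SCAN domain, 0 were covered in all 8 and 6 in none, with a mean of 20.4%. Of 5 ZKSCAN genes, 1 was covered in all 8 (ZKSCAN7) and 4 in none, with a mean of 15.8%. The ZBTB family, which joins zinc fingers to a BTB domain, had 33 of 38 genes at 0, 1 in all 8 (ZBTB40) and a mean of 0.561%. Of 18 genes for proteins that write or read H3K9me3 or work with KRAB zinc finger proteins, among them TRIM28, SETDB1 and the CBX genes, 16 were at 0 in all 8. The others were SETDB1, at 7.80% in LmnB1_16 replicate 1 alone, and ATF7IP, at 3.64 to 5.10% in 3 LmnB1 libraries. Most of these genes lay under the mean of 5% and were not tested for a difference between constructs.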

How the data were processed

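H3K9me3 Cut&Run was made with the antibody ab8898 and an EpiCypher CUTANA protocol, per the labels' protocols. The submitters' processing notes list the builds GRCh38 and hg38 and the tools deepTools, DESeq2, SICER and DiffBind 3.0.15, without their roles. No source used here names the aligner. The authors deposited 1 domain list per library, with replicates not pooled. A deposited row holds the domain's log2 enrichment over input, a score of 100 times that log2 value, a p-value and its adjusted form, and the counts of marked and of input reads. Counts exist only for a library's own domains, so no count model was run. Domain starts lie on steps of 1000 bp and the lowest listed log2 is 0.6.

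Gene positions, strands and promoters came from RefSeq tables of GRCh38.p14. For every protein-coding gene and library the percent of the body inside domains was computed. Genes with a mean of at least 5% entered a limma fit (version 3.58.1, R 4.3.3), LmnB1 minus mCherry, with the clone as a random block (correlation 0.366) and Benjamini-Hochberg adjustment over all 2304 genes at 0.05. All 8 libraries entered that fit, and p-values measure the spread between libraries of 2 clones per construct. The scripts ran in Python 3.11.15 with scipy 1.17.1, pandas 2.3.3, numpy 2.4.6 and matplotlib 3.10.9, and the functions were tested on simulated data. The named genes are the 8 clustered and 8 solitary genes with the highest mean, every gene past the limma threshold, every gene whose groups do not overlap, and the runs of 4 or more genes with their genes at 0; ZNF510, ZNF718, ZNF721, ZNF33A, ZNF623, ZNF148, ZNF385D the genes nearest the distance limit, those listed under a single construct and the covered genes of the lists were named after their values were seen. The genes and lists were chosen with earlier results of these data known.

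Alternatives were the highest-scoring 50% of each list, equal covered length, joined domains, widened genes, other filters and neighbour distances, other fits, and each library left out. Replicate numbers did not pair the samples. Counting error and depth are those of the authors' domains, with 4467294 to 10321442 reads in the domains of LmnB1 libraries and 2855378 to 6959349 in those of mCherry libraries.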

Additional observations from a re-analysis of the deposited data

Results flagged for a closer look

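Within a construct's 4 libraries, a value was marked when its gap to the nearest other library took up nearly the whole range, by Dixon's criterion at 95%. Chance alone marks about 1 in 20 groups, and many of the genes examined were at 100% in most libraries, where any other value stands apart.

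Among LmnB1 libraries, the clustered minus solitary difference was 17.1 points in LmnB1_6 replicate 2, where the nearest of the others was 22.4 points. ZNF502 was at 0 in LmnB1_16 replicate 1 and 100% in the other 3. ZNF501 next to it was likewise at 0 there and at 100% in the other 3, inside the same domain. ZNF300 had 90.7% in LmnB1_6 replicate 2 and 100% in the others. ZNF514 had 49.0% in LmnB1_16 replicate 2 and 57.2% in the others. ZNF124 had 79.4% in LmnB1_16 replicate 2 and 77.4% in the others, a gap of 1 domain step.

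Among mCherry libraries, mCherry_4 replicate 2 stood apart at ZNF732 (95.8%, against 100% in the others), ZNF879 (90.6%, against 100%), ZNF648 (2.86%, against 100%) and ZNF860 (56.7%, where the nearest was 81.0%). In mCherry_4 replicate 1 ZNF717 had 67.1%, where the nearest was 95.6%, and ZNF883 was at 0, where the others were at 100%. ZNF594 had 89.5% in mCherry_3 replicate 1 and 100% in the others. The part of depth in these values was not tested.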

How the results depend on the processing

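Clustered genes stayed above solitary genes in every alternative run, by 17.5 points with neighbours counted within 500 kb and by 24.6 points without the run of 9 genes at 0 (chosen after seeing the data), beside 20.9 points; with 1 library left out the difference ran from 20.4 to 21.8 points. With only the highest-scoring 50% of domains kept, the mean covered percent of the ZNF genes was 17.2% beside 21.4%, and 24 genes were covered in all libraries beside 45; 21 were covered over at least 50% in all. The count of ZNF genes past limma's threshold was 0 under every other setting, the replicate block (0) and the mCherry_3 replicates averaged as 1 sample included, and 0 to 2 with 1 library left out, 2 without LmnB1_6 replicate 2 and 1 without mCherry_4 replicate 2. Deviations of same-numbered replicates correlated at -0.0245 to 0.0987 between clones, so the block rests on numbers only. With all 8 libraries counted separately, the LmnB1 minus mCherry difference over the ZNF genes was 1.40 points. It ran from -0.458 (without mCherry_4 replicate 2) to 3.41 (without LmnB1_6 replicate 2). The difference at ZNF514 turned to 3.40 with those highest-scoring domains (limma adjusted p = 1.0, range over its alternatives 0.485 to 1.0); the cause was not tested. Adjusted p in limma over the alternatives ran from 0.00630 to 1.0 for ZNF860, 0.0387 to 1.0 for ZNF721 and 0.0412 to 1.0 for ZNF33A. ZNF33A fell below the filter and was not tested in some alternatives. Depth limits what a value of 0 means, since regions below the authors' threshold are not listed.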
